A study of Mus musculus with 10 samples.

Results

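The classical cadherins and their catenins hold epithelial cells together at the adherens junction, and 9 genes of this system, Cdh1, Cdh2, Cdh3, Cdh11, Cdh13, Ctnna1, Ctnnb1, Ctnnd1 and Ctnnal1, were followed in mouse bladder RNA. They were chosen by name from the 55536 genes that each library counts. RNA was sequenced from C57BL/6 mice of 3 genotypes, with 4 WT libraries, 3 OMD-/- libraries that lack osteomodulin, and 3 PRELP-/- libraries that lack the related protein PRELP (written PRLEP-/- in the genotype label). Both proteins are secreted small leucine-rich proteoglycans of the extracellular matrix, and the comparison asks how adhesion genes stand in the bladder without either of them. The knockouts are constitutive, every cell of the animal carries them, and β-galactosidase was placed under each gene's own promoter. Age and sex were not given in the labels. The labels describe homogenised bladder tissue, whereas the methods of the study speak of isolated bladder epithelia. No label says whether replicates of a group came from separate animals, so p-values measure the spread between these libraries only. The study gives fewer WT mice but more OMD-/- mice than there are libraries of these groups here. Its numbers do not map onto these libraries, so WT libraries may share an animal, but this cannot be told.

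In the adherens junction the outer part of a cadherin binds cadherins of the neighbouring cell in a calcium-dependent manner. Its cytoplasmic tail binds β-catenin (Ctnnb1) and δ-catenin (Ctnnd1), and α-catenin (Ctnna1) links β-catenin to actin. E-cadherin (Cdh1) is the main cadherin of the urothelium, the multilayered lining of the bladder, P-cadherin (Cdh3) is a cadherin of basal epithelial layers, and N-cadherin (Cdh2) and cadherin-11 (Cdh11) are typical of mesenchymal cells. A gain of N-cadherin with a loss of E-cadherin is a known mark of epithelial-mesenchymal transition. T-cadherin (Cdh13) lacks a cytoplasmic tail, is held in the membrane by a lipid anchor and is known from endothelium and smooth muscle. Free β-catenin also enters the nucleus and works with TCF and LEF factors downstream of Wnt. Ctnnal1 encodes α-catulin, a relative of α-catenin.

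Libraries held 20391437 to 46269079 counts, and WT 1 was the deepest. Levels are given as CPM, a gene's counts scaled to a common library size, after TMM normalization over all 10 libraries. Prelp had 46 to 74 counts in the PRELP-/- libraries, against 4848 to 15890 in WT, and Omd had 0 counts in all 3 OMD-/- libraries but also only 0 to 12 in WT, so Omd checks the labels weakly. Epithelial markers summed to 6958 to 11770 CPM and umbrella cell markers to 7317 to 18910 CPM over all libraries. Fibroblast markers summed to 8387 to 21670 CPM, so the samples were not epithelium alone. Smooth muscle markers summed to 256.1 to 1390.0 CPM, with Tagln low at 1.195 to 4.96 CPM and Myh11 at 47.8 to 522.6 CPM. PRELP-/- 1 stood apart from PRELP-/- 2 and 3, with a chi-square per gene of 244 and 240 against 3.76 between the other two. Summed Y-linked genes lay between 0 and 189 CPM in WT, at 18.5 to 120.0 CPM in PRELP-/- and at 0.73 to 18.1 CPM in OMD-/-, so the libraries of a group differ in this respect. OMD-/- 2 and 3 were the closest pair of libraries, with a chi-square per gene of 3.20, against 29.1 and 26.5 to OMD-/- 1. In WT it was 12.4 between libraries 1 and 2 and 9.09 between 3 and 4, against 31.8 to 54.3 across these pairs. All were kept as separate libraries, so a group may hold fewer independent samples than libraries.

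β-catenin and E-cadherin were the most abundant of the 9 RNAs in every group when CPM was divided by exon length. In WT, Ctnnb1 stood at 168 ± 8.44 CPM per kb (SD, n = 4) and Cdh1 at 142 ± 14.0 CPM per kb. Ctnna1 followed at 71.3 ± 8.04 and Ctnnal1 at 24.1 ± 0.8297 CPM per kb. Neighbours among these first 4 genes did not overlap between WT libraries. Ctnnd1 at 8.10 ± 1.15 and Cdh11 at 6.22 ± 1.11 CPM per kb overlapped in WT, although Ctnnd1 was the higher in each of the 4 libraries. The low end was held by Cdh3 at 2.37 ± 0.311, Cdh13 at 2.07 ± 0.510 and Cdh2 at 0.907 ± 0.302 CPM per kb, where Cdh3 and Cdh13 overlapped and Cdh2 lay below both.

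The knockouts gave the same order with 1 exception. Ctnnb1 and Cdh1 came first again but overlapped in OMD-/-, at 205 ± 6.23 and 188 ± 12.3 CPM per kb (SD, n = 3), and in PRELP-/-, at 193 ± 34.2 and 162 ± 62.1 CPM per kb. The exception was Cdh13, which stood above Cdh3 without overlap in OMD-/-, at 3.02 ± 0.0581 against 2.06 ± 0.212 CPM per kb, and in PRELP-/-, at 3.17 ± 0.0950 against 2.45 ± 0.506 CPM per kb. The level of Ctnnd1 is uncertain, because 4482 of its 7319 exon bases lie inside an overlapping gene on the same strand, Gm28635, which had 0 counts in all libraries. Per kb of the 2837 exon bases left to it, Ctnnd1 stood at 20.9 ± 2.97 CPM in WT, where it overlapped Ctnnal1, and above Ctnnal1 in both knockouts, at 27.4 ± 0.961 CPM for OMD-/- and 27.8 ± 3.05 CPM for PRELP-/-. Ctnnb1 shares 759 bases with Ulk4 on the other strand (99 to 282 counts), which matters only where the counting ignored strand, and that setting is not given in the sources used here.

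Within WT the libraries fell into pairs for several members. The mean log2 CPM of WT 1 and 2 exceeded that of WT 3 and 4 by 0.74 for Cdh2, 0.58 for Cdh13, 0.38 for Cdh11, 0.31 for Ctnnd1, 0.28 for Ctnna1 and 0.24 for Cdh1. Cdh3 (-0.11), Ctnnb1 (-0.091) and Ctnnal1 (-0.068) differed by less and in the other direction. The same pairs differed in Y-linked RNA, at 188.6 and 163 CPM in WT 1 and 2 against 0 and 0.04 CPM in WT 3 and 4, and in smooth muscle markers, at 355 and 337 CPM against 1390.0 and 1225 CPM. Median differences by exon length were smaller, from -0.118 for genes under 2 kb to 0.172 for those over 8 kb. No label marks these pairs. A fit of OMD-/- against WT with Y-linked RNA as a covariate called 8 of the 9 genes in place of 5, and so did a fit of the libraries with under 1 CPM of Y-linked genes, WT 3 and 4 against OMD-/- 2 and 3, a choice made after seeing the data. In the latter, log2 fold changes were 1.08 for Cdh2, 0.699 for Cdh11 and 0.853 for Cdh13, against 0.66, 0.38 and 0.55 with all libraries. Calls rose over all tested genes as well, to 6493 with the covariate and 8989 in the libraries low in Y-linked RNA, against 4899 with neither.

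**Figure D1:**
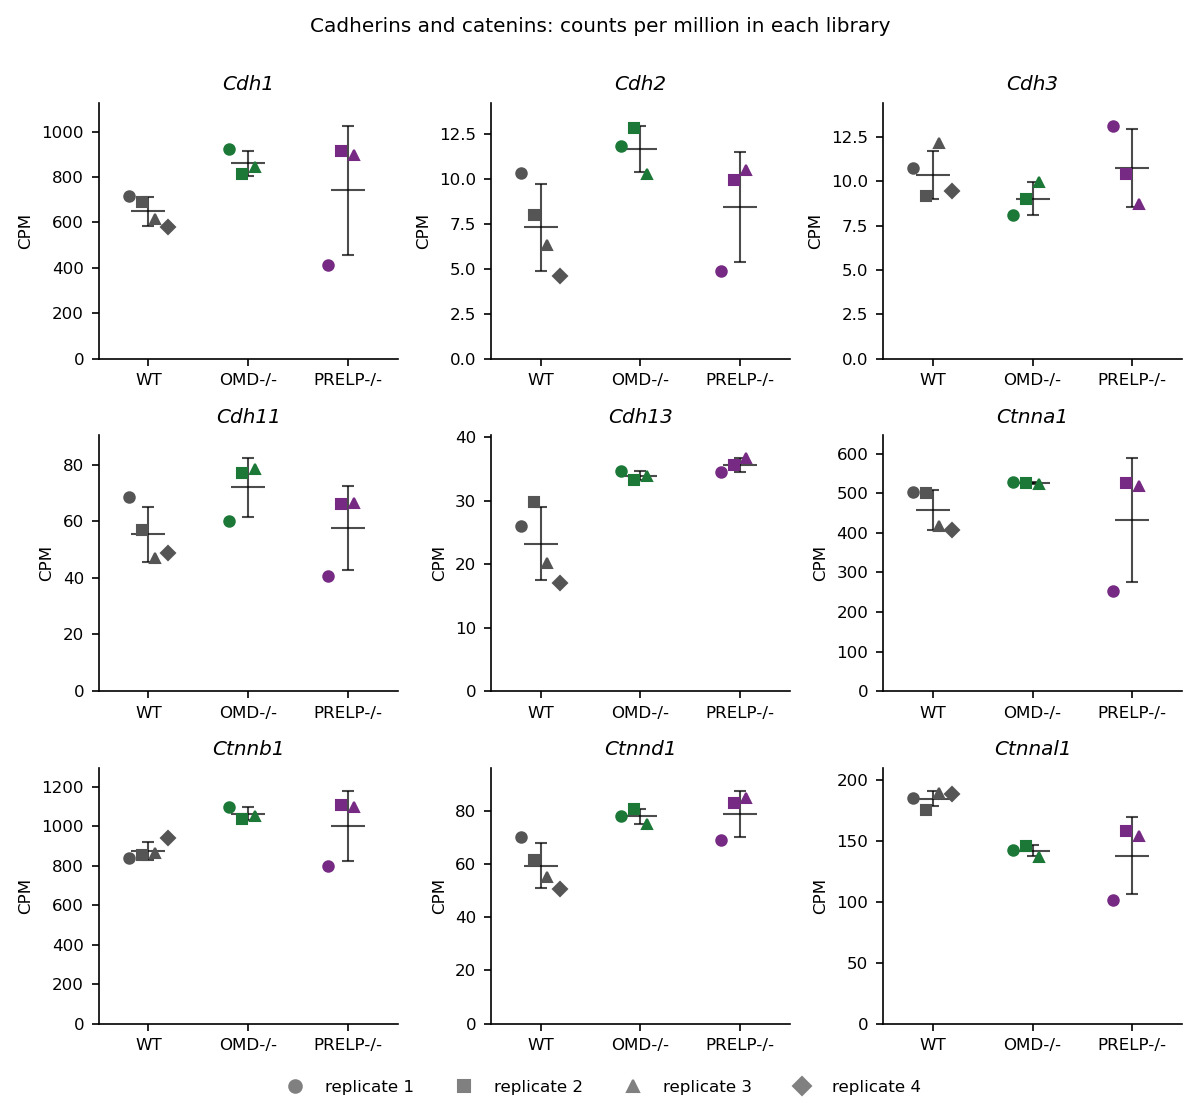
CPM of each gene in the WT, OMD-/- and PRELP-/- libraries, with 1 point for each library, its symbol giving the replicate number, and bars for the mean ± SD; every vertical axis starts at 0. Cdh1, Cdh13, Ctnna1, Ctnnb1 and Ctnnd1 lie above every WT library in all 3 OMD-/- libraries, and Ctnnal1 lies below. How many of all genes separate in this way was not counted. PRELP-/- 1 lies far below the other PRELP-/- libraries for Cdh1, Cdh2 and Ctnna1.

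In OMD-/- bladders the RNAs of E-cadherin, T-cadherin, β-catenin and δ-catenin were higher and that of α-catulin was lower than in WT. In OMD-/- against WT, 5 of the 9 genes passed the test, Cdh1, Cdh13, Ctnnb1 and Ctnnd1 higher and Ctnnal1 lower, all by less than 1.5-fold. Their number has to be read against the background, since 29.4% of the 16647 tested genes passed in this comparison, 14.3% higher and 15.1% lower. How many of all tested genes had no overlap between the groups was not counted. A member whose groups do not overlap is therefore not shown to be unusual. Of the 9 genes, 7 had a positive log2 fold change, with a median of 0.38 against 0.00 for all tested genes. The test was edgeR's two-sided quasi-likelihood test on the counts, with Benjamini-Hochberg adjustment over all tested genes and a threshold of 0.05. In 1 fit over all 3 groups 0 of the 9 passed, beside 2485 of all tested genes. With the closest libraries of each group summed, a choice made after seeing the data, 0 passed as well, beside 1658 of all tested genes. After scaling to total counts alone, 1 passed. That scaling moved the median log2 fold change of all genes to -0.16. The split of passing genes went from 2377 higher and 2522 lower to 1256 higher and 4283 lower.

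Cdh1 (ENSMUSG00000000303, GRCm38 chr8:106603351-106670246, plus strand) had 714.7, 692, 614 and 579 CPM in the WT libraries. In OMD-/- it had 923, 814 and 844 CPM. All 3 OMD-/- libraries lay above all 4 WT libraries, and E-cadherin RNA rose 1.32-fold (log2 fold change 0.40, SE 0.095, edgeR adjusted p = 0.00968). The call held without any single library, and over 17 alternatives the adjusted p ran from 1.26e-06 to 0.291. The sum of 12 epithelial markers moved the same way, from 6958 to 7239 CPM in WT to 7587 to 9629 CPM in OMD-/-. Their mean log2 CPM overlapped, at 8.311 to 8.426 in WT and 8.659, 8.368 and 8.395 in OMD-/- 1, 2 and 3. Krt18 and Elf3 rose, Grhl2 fell and the other 9 did not pass, where 29.4% of all tested genes passed and 14.3% rose. Umbrella cell markers, those of the top urothelial layer, were higher in 5 of 5 genes, with Upk1a and Upk2 passing, and summed to 7317 to 8921 CPM in WT and 9326 to 12690 CPM in OMD-/-. The part of the umbrella cell markers in the Cdh1 result was not tested. In bulk samples such as these, more cells of a type and more RNA per cell cannot be told apart.

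N-cadherin and cadherin-11 had higher means in OMD-/- but missed the threshold. Cdh2 (ENSMUSG00000024304, chr18:16588877-16809246, minus strand) had 10.3, 7.99, 6.34 and 4.61 CPM in WT and 11.8, 12.9 and 10.3 CPM in OMD-/-, so WT 1 overlapped OMD-/- 3 (log2 fold change 0.66, SE 0.23, edgeR adjusted p = 0.0522). Without WT 1 its edgeR adjusted p was 0.00955. Cdh11 (ENSMUSG00000031673, chr8:102632095-102785642, minus strand) had 68.7, 56.8, 47.0 and 48.9 CPM in WT and 60.1, 77.2 and 78.6 CPM in OMD-/-, with OMD-/- 1 inside the WT range (log2 fold change 0.38, SE 0.14, edgeR adjusted p = 0.0691). Without WT 1 the edgeR adjusted p of Cdh11 was 0.0146, and without OMD-/- 1 it was 0.0315. Fibroblast markers rose beside these mesenchymal cadherins, 5 of 9 passing (Col1a1, Col1a2, Col3a1, Pdgfra and Pi16), and their sum went from 8387 to 9548 CPM in WT to 17770 to 21670 CPM in OMD-/-. Leukocyte markers rose too, 6 of 8 passing, from 600.5 to 665.8 CPM summed in WT to 829.8 to 1552 CPM in OMD-/-. Of all tested genes 14.3% passed as higher in this comparison.

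T-cadherin RNA rose and was tightly grouped in the knockout. Cdh13 (ENSMUSG00000031841, chr8:118283733-119324921, plus strand) had 25.95, 29.8, 20.25 and 17.0 CPM in WT, where libraries 1 and 2 lay above libraries 3 and 4. The OMD-/- libraries had 34.6, 33.3 and 33.9 CPM, all above WT, a rise of 1.46-fold (log2 fold change 0.55, SE 0.16, edgeR adjusted p = 0.0276). This call was lost in turn without WT 3, OMD-/- 1, OMD-/- 2 or OMD-/- 3, with edgeR adjusted p of 0.0744, 0.0723, 0.0755 and 0.0847, and the fold change stayed between 0.38 and 0.85 on the log2 scale over 17 alternatives. Endothelial markers summed to 223.8 to 478.7 CPM in WT and 520.6 to 597.8 CPM in OMD-/-, without overlap. By mean log2 CPM the same markers overlapped, at 5.520 in WT 2 and 5.502 in OMD-/- 1. Of these 9 markers 8 had a higher mean in OMD-/-, 7 had an unadjusted p under 0.05 and the median log2 fold change was 0.58, near the 0.55 of Cdh13, while only Egfl7 passed after adjustment, and it fell. Smooth muscle markers, of which 0 of 9 passed and 0 had an unadjusted p under 0.05, summed to 336.6 to 1390.0 CPM in WT and 418.7 to 843.6 CPM in OMD-/-.

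P-cadherin did not follow E-cadherin. Cdh3 (ENSMUSG00000061048, chr8:106510891-106557297, plus strand), which lies beside Cdh1 on the chromosome, had 10.7, 9.17, 12.1 and 9.44 CPM in WT and 8.11, 8.99 and 9.96 CPM in OMD-/-. The groups overlapped (log2 fold change -0.20, 95% interval -0.53 to 0.13, edgeR adjusted p = 0.336). Basal urothelium markers gave 2 of 6 tested genes that rose, Krt15 and Itga6, where 14.3% of all tested genes rose. Of the 6, only 3 had a positive log2 fold change. The basal markers summed to 2662 to 3443 CPM in WT and 3478 to 4686 CPM in OMD-/-. By mean log2 CPM they overlapped, at 6.679 to 7.021 in WT and 7.137, 6.719 and 6.97 in OMD-/- 1, 2 and 3.

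Among the catenins, the 2 that bind the cadherin tail rose and α-catenin did not pass. Ctnnb1 (ENSMUSG00000006932, chr9:120929216-120960507, plus strand) had 839.9, 852.9, 867 and 938 CPM in WT and 1100, 1038 and 1054 CPM in OMD-/-, which lay above all WT libraries. β-catenin RNA rose 1.22-fold (log2 fold change 0.28, SE 0.083, edgeR adjusted p = 0.0268). This was the least firm of the 5 calls and was lost without WT 1, WT 2, WT 3, OMD-/- 2 or OMD-/- 3, at edgeR adjusted p of 0.0766, 0.0710, 0.0770, 0.0660 and 0.0848. Ctnna1 (ENSMUSG00000037815, chr18:35118859-35254779, plus strand) had 503, 501.5, 419 and 408 CPM in WT and 529, 525 and 524.5 CPM in OMD-/-. α-catenin RNA was thus above WT in each OMD-/- library, with a log2 fold change of 0.20 (95% interval -0.0098 to 0.41, edgeR adjusted p = 0.138).

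δ-catenin moved by as much as E-cadherin. Ctnnd1 (ENSMUSG00000034101, chr2:84600071-84650765, minus strand) had 69.9, 61.5, 55.2 and 50.4 CPM in WT and 77.8, 80.5 and 75.1 CPM in OMD-/-. The groups did not overlap, and Ctnnd1 rose 1.31-fold (log2 fold change 0.39, SE 0.11, edgeR adjusted p = 0.0176). Without WT 3, OMD-/- 2 or OMD-/- 3 the edgeR adjusted p was 0.0542, 0.0724 and 0.0517. α-catulin was the 1 member that fell: Ctnnal1 (ENSMUSG00000038816, chr4:56810935-56865188, minus strand) had 184.9, 175, 189 and 188 CPM in WT and 142.7, 145.5 and 137 CPM in OMD-/-. All OMD-/- libraries lay below all WT libraries, at 0.768 times the WT level (log2 fold change -0.38, SE 0.073, edgeR adjusted p = 0.00346), and no single library decided the call.

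Promoter windows from the RefSeq table of GRCm38.p6 were taken for 3 of the 9 genes. These are the 3 catenin genes that changed, with Ctnnb1 and Ctnnd1 higher and Ctnnal1 lower in OMD-/-. Whether that table lists windows of the other members is not shown here, so this match is no result about catenins. Each window runs from 250 bases before a start listed in that table to 50 after it. Where a gene has 2 windows the one with the lower coordinate is shown. These starts can differ from the gene bounds given above: both Ctnnb1 windows lie inside its bounds, and the second Ctnnd1 window lies outside them. The windows are Ctnnb1 at chr9:120933150-120933449 (plus strand), Ctnnd1 at chr2:84650691-84650990 (minus strand) and Ctnnal1 at chr4:56865162-56865461 (minus strand), written 5′ to 3′ in the direction of the gene. They are shown because these genes passed the test in opposite directions. Capitals mark matches on either strand to the GC box (GGGCGG), the CCAAT box (CCAAT), the E-box bound by Snail and Zeb factors (CAGGTG), the TCF motif (CTTTGA) and the TATA box (TATAAA).
Ctnnb1: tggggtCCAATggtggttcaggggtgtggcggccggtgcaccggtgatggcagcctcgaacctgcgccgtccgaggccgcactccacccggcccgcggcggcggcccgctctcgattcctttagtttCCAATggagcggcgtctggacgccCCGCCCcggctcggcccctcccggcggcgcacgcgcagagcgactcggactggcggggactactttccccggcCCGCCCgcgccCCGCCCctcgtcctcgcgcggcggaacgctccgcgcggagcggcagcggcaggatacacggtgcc
Ctnnd1: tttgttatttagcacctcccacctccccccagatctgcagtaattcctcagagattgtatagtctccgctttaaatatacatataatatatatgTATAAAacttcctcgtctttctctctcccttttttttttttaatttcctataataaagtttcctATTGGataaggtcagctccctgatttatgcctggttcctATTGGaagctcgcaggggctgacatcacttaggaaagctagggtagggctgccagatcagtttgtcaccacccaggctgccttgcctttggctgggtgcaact
Ctnnal1: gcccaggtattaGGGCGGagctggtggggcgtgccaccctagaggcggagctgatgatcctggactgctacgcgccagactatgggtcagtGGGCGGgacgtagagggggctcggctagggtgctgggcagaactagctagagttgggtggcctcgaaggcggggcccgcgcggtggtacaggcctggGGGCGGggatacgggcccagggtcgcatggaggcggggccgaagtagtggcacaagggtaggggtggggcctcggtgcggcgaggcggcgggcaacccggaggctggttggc

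The Ctnnb1 window was 75.3% G or C and held 3 GC boxes and 2 CCAAT boxes. The Ctnnal1 window was 70.3% G or C and also held 3 GC boxes, whereas the Ctnnd1 window was 42.7% G or C and held 2 CCAAT boxes and 1 TATA box. Over all 32851 windows read from the table, 35.7% held a GC box, 37.4% a CCAAT box and 13.6% a TATA box. None of the 3 windows held the E-box, found in 20.2% of all windows, or the TCF motif, found in 16% of them. The GC box thus occurred in 1 gene that rose and in the 1 that fell. The picture depends on the window: the second window of Ctnnd1, at chr2:84658928-84659227, was 67.7% G or C and held no TATA box, and the second of Ctnnb1, at chr9:120933328-120933627, was 75% G or C and held 1.

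**Figure D2:**
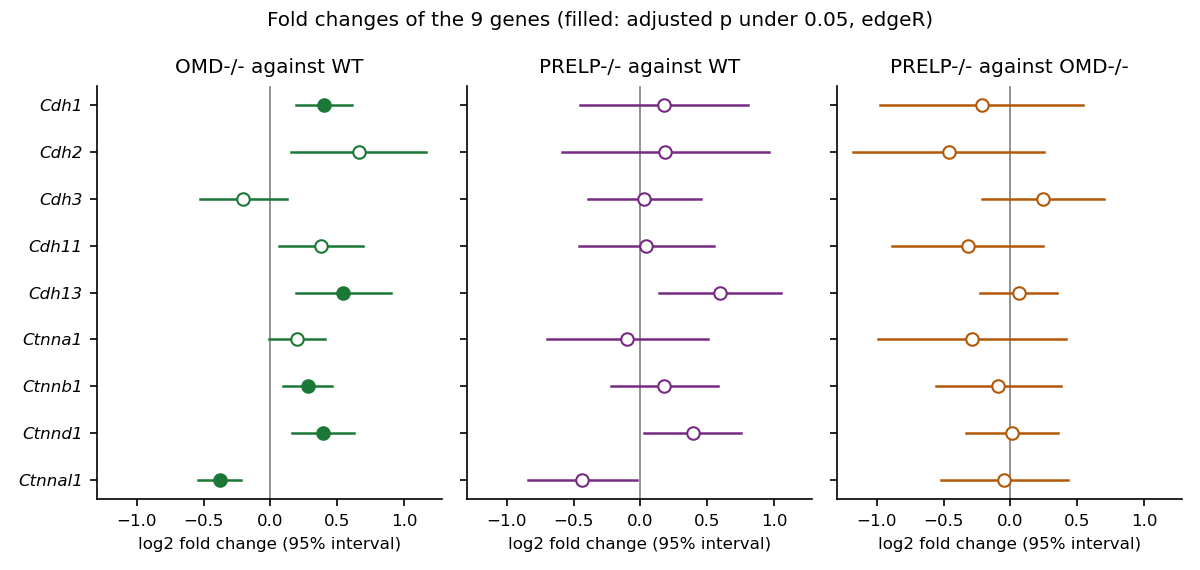
Log2 fold changes of the 9 genes with 95% intervals in OMD-/- against WT, PRELP-/- against WT and PRELP-/- against OMD-/-; filled points passed edgeR's test at an adjusted p of 0.05. Intervals are wider in the comparisons that hold PRELP-/- libraries, except that of Cdh13 in PRELP-/- against OMD-/-, and filled points appear in OMD-/- against WT only.

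In PRELP-/- against WT 0 of the 9 genes passed edgeR's test, and 3 had an unadjusted p under 0.05, Cdh13, Ctnnd1 and Ctnnal1. The background was 7.29% of 16581 tested genes. DESeq2 called 1 of the 9 and limma-voom with weights for library quality called 7. Over all tested genes they called 2547 and 6973, against 1209 with edgeR. This comparison uses the same WT libraries as that of OMD-/-, so the values of the 2 knockouts against WT are not independent. The spread in PRELP-/- was wide, with PRELP-/- 1 far from the other libraries of its group in most members.

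Cdh1 had 413, 912.5 and 897 CPM in the 3 PRELP-/- libraries, the first below and the others above all WT libraries (log2 fold change 0.18, SE 0.28, edgeR adjusted p = 0.718). Ctnna1 had the same shape, with 252, 525.6 and 519 CPM (log2 fold change -0.097, edgeR adjusted p = 0.842), and Cdh2 also had its low value in PRELP-/- 1, with 4.89, 9.94 and 10.5 CPM (log2 fold change 0.19, edgeR adjusted p = 0.756). In these 3 genes a single library set the sign or size of the group's mean. Ctnnb1 had 796, 1110 and 1098 CPM and Cdh11 had 40.5, 66.1 and 66.4 CPM. Cdh3 went the other way, with 13.1, 10.4 and 8.73 CPM, PRELP-/- 1 being the highest of all 10 libraries.

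T-cadherin differed least between PRELP-/- 1 and the other PRELP-/- libraries. Cdh13 had 34.5, 35.6 and 36.7 CPM in PRELP-/-, all above WT (1.51-fold, log2 fold change 0.59, SE 0.20, edgeR adjusted p = 0.106). Ctnnd1 had 68.8, 82.7 and 84.7 CPM (log2 fold change 0.39, SE 0.16, edgeR adjusted p = 0.163), with PRELP-/- 1 just inside the WT range. Ctnnal1 had 101.5, 157.5 and 154 CPM, all below WT (log2 fold change -0.44, SE 0.18, edgeR adjusted p = 0.163). Smooth muscle markers summed to 256.1 to 274.8 CPM in PRELP-/-, below all WT libraries, and 0 of 9 passed, although all 9 had a negative log2 fold change (median -1.65) and 8 an unadjusted p under 0.05. Endothelial markers summed to 396.0 to 587.7 CPM, with 8 of 9 positive, 2 at an unadjusted p under 0.05 and 0 passing. Of 9 fibroblast markers in PRELP-/-, 2 passed, Col1a1 and Col1a2, and of 5 umbrella cell markers 1 passed, Upk2, all higher. The share over all tested genes was 7.29%. Positive log2 fold changes numbered 7 of the 9 and 4 of the 5.

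Without PRELP-/- 1, 4 of the 9 genes passed against a background of 22.2% of 17120 tested genes: Cdh1 (log2 fold change 0.49, edgeR adjusted p = 0.00812), Cdh13 (0.65, edgeR adjusted p = 0.0452), Ctnnb1 (0.35, edgeR adjusted p = 0.0140) and Ctnnd1 (0.51, edgeR adjusted p = 0.0191). Ctnnal1 then stood at -0.23 on the log2 scale (edgeR adjusted p = 0.0581), Ctnna1 at 0.20 in place of -0.097, and Cdh3 at -0.10 in place of 0.03.

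PRELP-/- 1 departed from PRELP-/- 2 and 3 along exon length. Over all genes with a mean of at least 10 CPM, its median log2 difference from their mean was 0.90 for genes under 2 kb, 0.36 for those of 2 to 4 kb, -0.15 for those of 4 to 8 kb and -0.71 for those over 8 kb. The cadherins and catenins have 4384 to 11233 exon bases. Cdh1 was at -1.13, Cdh2 at -1.05 and Ctnna1 at -1.05, below the median of their length classes, Cdh11 at -0.71 was on it, and Cdh13 at -0.065 was far above it. Between the means of OMD-/- and WT the same classes differed by 0.0402 to 0.0462. In the same library blood markers summed to 473.5 CPM, against 35.4 to 69.6 CPM in the others. The part of these in the results was not tested.

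**Figure D3:**
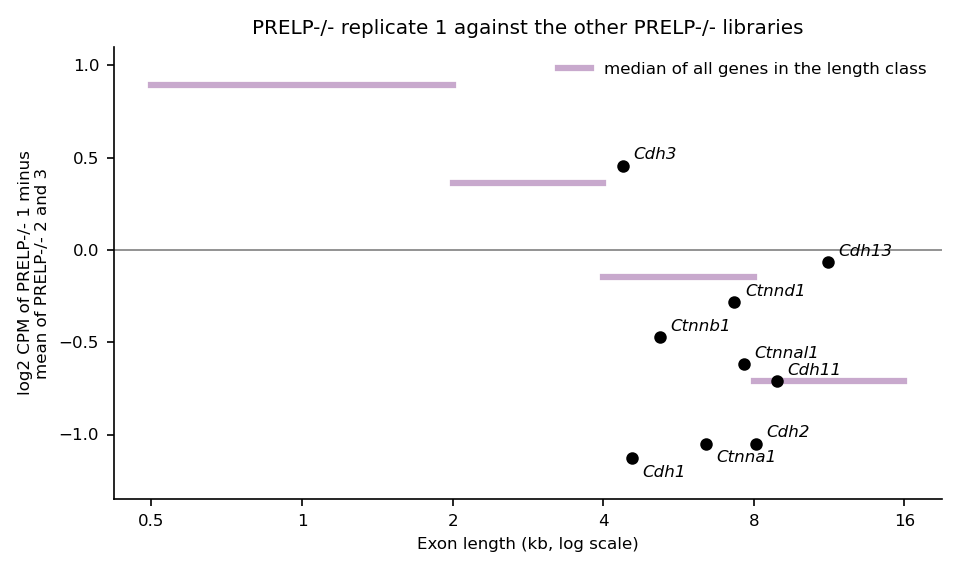
Log2 CPM of PRELP-/- 1 minus the mean of PRELP-/- 2 and 3 for the 9 genes, against exon length on a log axis; purple bars are medians of all genes in a length class, those of the shortest and longest class being drawn over part of an open range. Cdh1, Cdh2 and Ctnna1 lie at or below -1.05, and Cdh3 alone lies above 0.

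No member differed between the 2 knockouts by edgeR's test. In PRELP-/- against OMD-/-, 0 of the 9 genes passed and 0 had an unadjusted p under 0.05, and 0.00633% of 15805 tested genes, 1 gene, passed. With the replicate number as a block, which treats same-numbered libraries as pairs, 43 genes passed and again 0 of the 9. The smallest adjusted p of the 9 was 0.690. The intervals leave room for sizeable differences: that of Cdh1 ran from -0.97 to 0.54 and that of Cdh2 from -1.18 to 0.25 on the log2 scale. Cdh13 had the narrowest, -0.23 to 0.35, around a log2 fold change of 0.06.

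To set each cadherin beside the cells it comes from, differences of log2 CPM were taken inside each library and compared between groups by exact two-sided permutation tests, 24 in all, where the smallest possible p was 0.05714 with 4 against 3 libraries and 0.1 with 3 against 3. The N-cadherin to E-cadherin balance overlapped between WT and each knockout. Cdh2 minus Cdh1 was -6.51 ± 0.35 in WT (SD, n = 4), -6.20 ± 0.20 in OMD-/- and -6.43 ± 0.068 in PRELP-/-, and exact p was 0.229 for OMD-/- and 0.686 for PRELP-/- against WT. The knockouts themselves did not overlap, PRELP-/- lying lower by 0.23 at the smallest possible exact p of 0.1, or 0.6 after adjustment over the 24 tests. Cdh11 minus Cdh1 was -3.56 ± 0.14, -3.59 ± 0.31 and -3.63 ± 0.24, with exact p of 0.8 and 0.629. Ctnnb1 minus Cdh1 was 0.43 ± 0.21, 0.31 ± 0.050 and 0.51 ± 0.38, with exact p of 0.514 and 0.686.

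E-cadherin RNA was higher in OMD-/- also beside the epithelial markers of the same library. Cdh1 minus the mean of 12 epithelial markers was 1.12, 1.01, 0.95 and 0.87 in WT and 1.19, 1.30 and 1.32 in OMD-/-, which did not overlap. The difference of 0.29 gave the smallest exact permutation p the design allows, 0.05714, and 0.6 after Benjamini-Hochberg adjustment over the 24 tests. In PRELP-/- the values were 0.015, 1.28 and 1.31, PRELP-/- 1 again being the low one (exact p = 0.857 against WT). Cdh3 minus epithelial markers was -4.98 ± 0.22 in WT, -5.29 ± 0.29 in OMD-/- and -5.16 ± 0.20 in PRELP-/-. All 3 groups overlapped.

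Beside the fibroblast markers, cadherin-11 had a lower mean in both knockouts than in WT. Cdh11 minus the mean of 9 fibroblast markers was -2.72 ± 0.063 in OMD-/-, -2.66 ± 0.084 in PRELP-/- and -2.42 ± 0.36 in WT (exact p = 0.343 and 0.457 against WT). With the median of the marker list in place of its mean, the OMD-/- difference from WT was -0.365 at exact p = 0.05714, the smallest possible, and that of PRELP-/- -0.335 at exact p = 0.114. WT itself was split, with -2.05 and -2.16 in libraries 1 and 2 and -2.76 and -2.70 in libraries 3 and 4. Cdh13 minus endothelial markers was -0.49 ± 0.26 in WT, -0.48 ± 0.085 in OMD-/- and -0.31 ± 0.20 in PRELP-/- (exact p = 0.971 and 0.343 against WT). Beside smooth muscle markers, T-cadherin stood higher in each PRELP-/- library, at 1.13, 1.37 and 1.46, than in WT, at 0.44, 0.66, -1.93 and -2.07 (exact p = 0.05714, adjusted 0.6), where again WT 1 and 2 stood apart from WT 3 and 4.

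**Figure D4:**
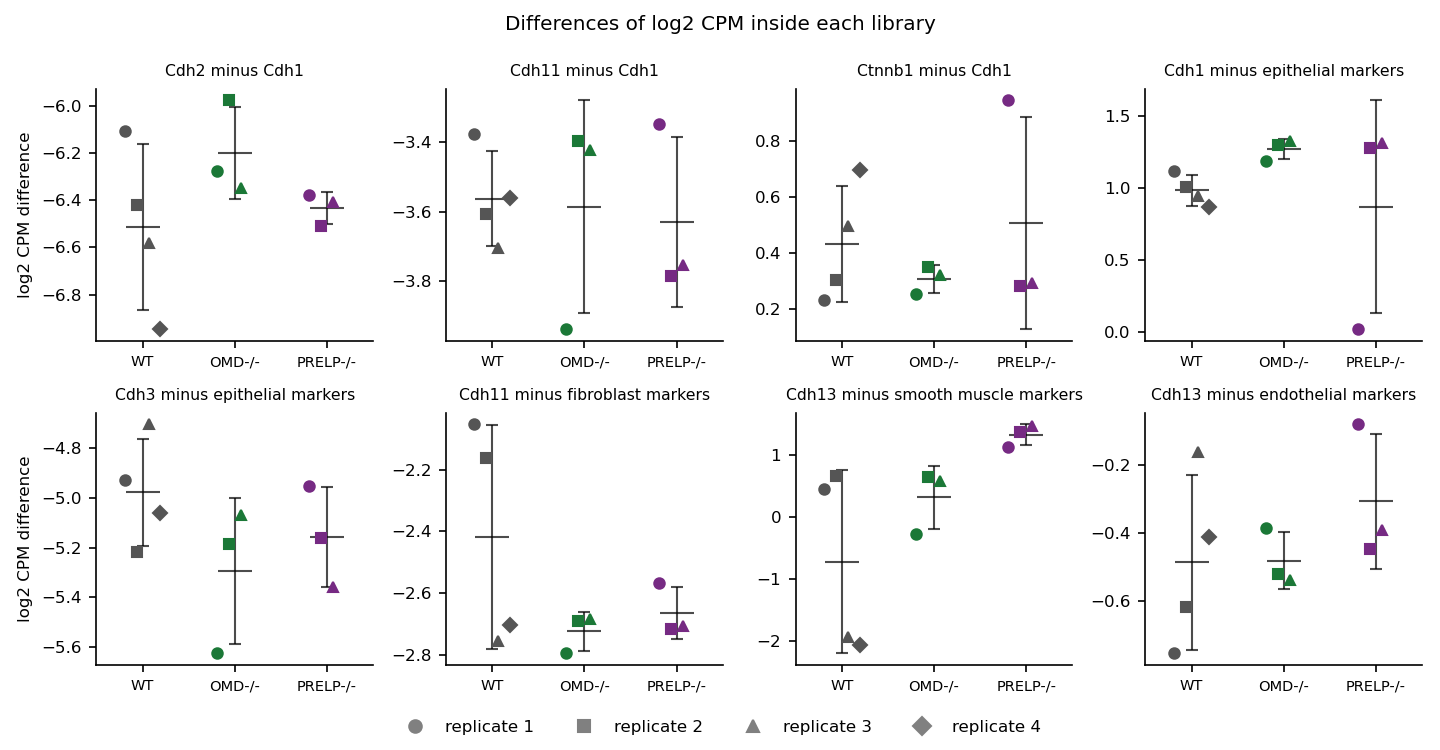
Differences of log2 CPM inside each library for 8 pairs, with 1 point for each library, symbols for replicate numbers and bars for the mean ± SD; the vertical axes differ and do not start at 0. Cdh1 minus epithelial markers is 1.19 to 1.32 in OMD-/- and 0.87 to 1.12 in WT.

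Other cadherins and catenins in OMD-/- were read from lists of the same system. In this comparison 29.4% of all tested genes passed, 14.3% higher and 15.1% lower, and shares near these are no result about a list. Of 27 further cadherins 18 were expressed well enough to test and 4 passed, a share below that background: Dchs1 rose (log2 fold change 0.92, from 27.8 ± 8.20 to 52.4 ± 6.46 CPM), as did Dchs2 (1.13) and Fat4 (0.58), each a large cadherin of the Dachsous and Fat families, and Cdh24 fell (-1.37, at 0.732 ± 0.106 CPM). Of 6 further catenins 4 were tested, and only Arvcf, a relative of δ-catenin, passed, falling from 31.4 ± 0.879 to 22.0 ± 0.532 CPM (log2 fold change -0.51, edgeR adjusted p = 0.0013). Jup, the β-catenin relative plakoglobin of desmosomes, stood at 332 ± 57.4 CPM in WT and 402 ± 31.3 CPM in OMD-/- and did not pass (edgeR adjusted p = 0.12). In PRELP-/- 0 of 17 further cadherins and 0 of 5 further catenins passed.

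Cytoplasmic and membrane partners of the junction passed at a share of 12 of 30 in OMD-/-, 10 higher and 2 lower, with a median log2 fold change of 0.23, where 29.4% of all tested genes passed. Ptprk, a receptor phosphatase that acts on catenins, rose from 86.5 ± 3.34 to 123 ± 14.8 CPM (log2 fold change 0.51, edgeR adjusted p = 0.00258). The small GTPases Rhoa (0.38) and Rac1 (0.36), which steer junctional actin, rose as well. Kifc3 and Plekha7, which anchor microtubules at the junction, fell, by 0.65 and 0.44 on the log2 scale. In PRELP-/- Kifc3 was the 1 of 30 that passed (log2 fold change -0.96, edgeR adjusted p = 0.0165), at 16.8 ± 2.54 CPM against 32.3 ± 4.99 CPM in WT, and this call was lost without WT 3, WT 4 or PRELP-/- 3. Without PRELP-/- 1, 11 of the 30 passed, but the share of all tested genes that passed also rose, from 7.29% to 22.2%.

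Genes listed as repressors of Cdh1 or as activators of the epithelial state were mixed in OMD-/-. Of these, 4 of 10 repressors and 5 of 11 activators passed, beside 29.4% of all tested genes. Of the repressors, 3 rose, Tcf4 (a helix-loop-helix factor, log2 fold change 0.81), Zeb2 (0.53) and Zeb1 (0.43), and Klf8 fell (-0.69, at 2.24 ± 0.4004 CPM). Snai1, at 22.6 ± 7.42 CPM in WT and 16.2 ± 0.694 CPM in OMD-/-, and Snai2, at 9.74 ± 1.15 and 13.1 ± 2.76 CPM, did not pass. Of the listed activators, 4 fell, among them the splicing regulator Esrp2 (-0.50) and Grhl1 (-0.31), and Elf3 rose (0.32). Cdh1 was thus higher in the same libraries in which 3 of its repressors were higher and 4 of the listed activators lower, alongside the fibroblast and leukocyte markers given above. Their part was not tested.

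On the β-catenin side, 1 of 13 genes that remove β-catenin, 3 of 12 of cadherin turnover and 3 of 10 nuclear partners passed, all higher, where 29.4% of all tested genes passed and 14.3% rose. Of the 13 genes of the destruction complex, which marks β-catenin for breakdown, only Gsk3b passed (log2 fold change 0.37, edgeR adjusted p = 0.0282). The genes of cadherin shedding and turnover that rose included Ncstn (0.39), a subunit of γ-secretase, and Cbll1 (0.31), the ubiquitin ligase Hakai. The nuclear partners that rose were Lef1, from 5.74 ± 2.06 to 14.4 ± 2.35 CPM (log2 fold change 1.32, edgeR adjusted p = 0.00363), Pygo1 (0.71) and Tcf7 (0.65), and the other 7 did not pass.

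Wnt target genes gave 7 of 15 tested that rose and 0 that fell in OMD-/-, where 14.3% of all tested genes rose, with a median log2 fold change of 0.41. Lef1 and Tcf7, already counted among the nuclear partners, are among those that rose, and Axin2 is also in the destruction complex list. These lists are therefore not independent of each other, and they were chosen with earlier results of these data known. Lgr5, a receptor for R-spondins, went from 8.17 ± 0.815 to 14.1 ± 1.18 CPM (0.78, edgeR adjusted p = 0.00148), Ccnd1, the cell cycle gene cyclin D, from 75.8 ± 2.38 to 103 ± 5.75 CPM (0.44), and Cd44, a hyaluronan receptor, from 135 ± 14.2 to 191 ± 2.36 CPM (0.51). Axin2, the usual readout of the pathway, was at 21.8 ± 7.05 CPM in WT and 29.0 ± 2.13 CPM in OMD-/- and did not pass (edgeR adjusted p = 0.176). In PRELP-/- 0 genes of the repressor, activator, turnover, destruction complex, nuclear partner and Wnt target lists passed edgeR's test, with 2, 3, 3, 2, 0 and 1 at an unadjusted p under 0.05. Some of these genes are also expressed outside the epithelium, and Lef1 and Tcf7 are known from lymphocytes as well, whose markers Cd3e and Cd79a rose in OMD-/-.

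**Figure D5:**
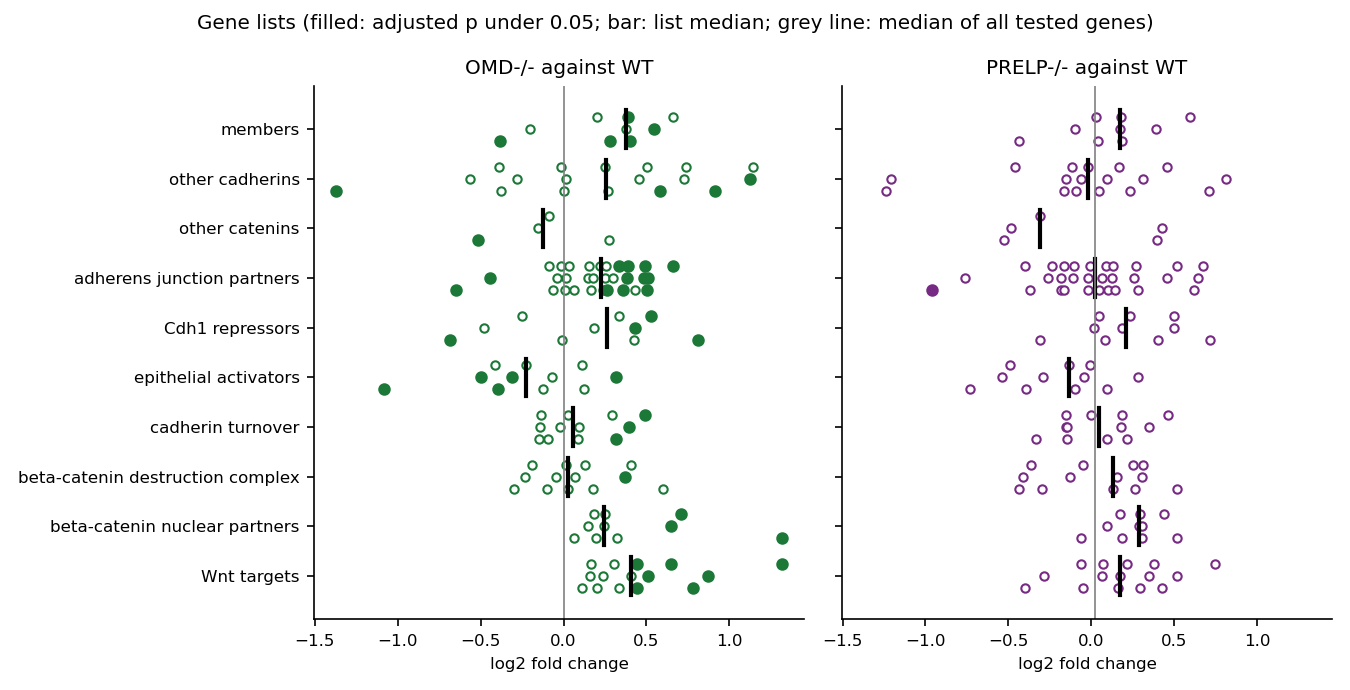
Log2 fold changes of the tested genes of each junction and pathway list, cell type markers left out, in OMD-/- against WT and PRELP-/- against WT, where filled points passed at an adjusted p of 0.05, black bars are list medians and the grey line is the median of all tested genes. In OMD-/- the 15 Wnt targets all lie above 0 and 7 are filled, whereas in PRELP-/- Kifc3 is the 1 filled point.

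The genes whose levels ran most like each member over the 10 libraries, out of 10064 genes with a mean of at least 10 CPM, describe shared variation of these libraries, in which PRELP-/- 1 carries much weight. Cdh1 was most like Ptprf, Ablim1 and Snx19 (Pearson's r of log2 CPM 0.991, 0.99 and 0.988). Ctnna1 was most like Myo5b, Mtr and Mertk (each 0.994), Ctnnb1 like Mvp (0.977), Arhgap6 (0.969) and Hist1h1c (0.967), and Ctnnd1 like Vangl1 (0.987), Stim1 (0.983) and Sf3a1 (0.979). Of the other cadherins, Cdh2 was most like Gtf3c4 (0.980), Cdh11 like Cblb (0.982), Cdh13 like Stau1 (0.988) and Cdh3, the least matched, like Gps2 (0.905). Ctnnal1 was most like Kat2b (0.980). All values come from the same 10 libraries and are given without a test.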

How the data were processed

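Bladder RNA of 10 libraries was read from the count files the authors deposited, which hold raw counts of reads per gene with no normalization. The file headers name HISAT2, and the submitters' processing notes list bcl2fastq, STAR 2.5.2b, featureCounts, DESeq2, GRCm38 and hg38 without roles. Strand setting and use of the molecular identifiers in the adaptors are not given in the sources used here. The 2 deposited tables of DESeq2 comparisons (fold changes and p-values) were not used. All 55536 identifiers matched GENCODE vM21, which gave symbols, coordinates and exon lengths.

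Comparisons were run in edgeR 4.0.16 (R 4.3.3), each on the libraries of 2 groups, with TMM, filterByExpr and robust quasi-likelihood fits. P-values are two-sided, were adjusted by Benjamini-Hochberg over all tested genes and were held against 0.05. Log2 CPM used a prior count of 2. The fits were tested on simulated data with known changes. Members and gene lists were chosen with earlier results of these data known. Named genes were all 9 members, up to 3 genes per list with the smallest adjusted p in each comparison with WT, and the 3 genes most like each member. One gene named by this rule is not reported here. Jup, Snai1, Snai2, Axin2, Plekha7, Fat4, Klf8, the overlapping genes and single marker genes lie outside that rule and were named after their values were seen. Alternatives were other scaling, no filter, DESeq2 1.42.0, limma 3.58.1, other designs and each library left out. Same-numbered PRELP-/- and OMD-/- libraries deviated together (r = 0.303, 0.181 and 0.148), and the number was tried as a block there, which changed no call of the 9 genes. For same-numbered knockout and WT libraries r ran from -0.0998 to 0.137. Libraries with different numbers were not compared, so these values cannot decide whether any libraries are paired. Counts cover sampling error only, since reads were not shown to be independent molecules.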

Additional observations from a re-analysis of the deposited data

How the results depend on the processing

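Calls moved with the design, while directions in OMD-/- against WT did not: the 9 fold changes kept their sign in all 17 alternatives. Of the 9 genes, 5 passed there, beside 4899 of all tested genes. The number was 1 with total counts only, 8 with limma-voom, 0 with all groups in one fit and 8 with a Y-linked covariate. Over all tested genes 5539, 7228, 2485 and 6493 passed in these settings. With single libraries left out, 2 to 6 of the 9 passed, beside 2951 to 4850 of all tested genes. Among alternatives chosen after seeing the data, 8 passed in libraries with under 1 CPM of Y-linked genes (WT 3 and 4, OMD-/- 2 and 3). With the closest library pairs summed, which leaves fewer samples, 0 passed. Over all tested genes these 2 settings gave 8989 and 1658. Of the 30 junction partners, 12 passed, against 7 with total counts only, 1 with all groups in one fit, 22 in the libraries low in Y-linked genes and 1 with pairs summed. In PRELP-/- against WT, where 0 of the 9 passed, DESeq2 gave 1, limma-voom 7, one fit 1, and leaving out single libraries 0 to 4. Over all tested genes 1209 passed there, 2547 with DESeq2, 6973 with limma-voom, 2485 in one fit and 475 to 3807 without single libraries. The partners there, 1 of 30, numbered 6 with DESeq2, 18 with limma-voom, 6 in one fit, 0 with pairs summed and 0 to 11 without single libraries. Total counts moved the median log2 fold change of all genes to -0.204 in PRELP-/- against WT, and the passing genes from 232 higher and 977 lower to 55 and 1717. The cause was not tested.

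Same-numbered WT and knockout libraries deviated with r from -0.0998 to 0.137, and replicate numbers are not shown to pair them. With the number as a block, 3 of the 9 genes passed in OMD-/- against WT, where Ctnnb1 (edgeR adjusted p = 0.0736) and Ctnnd1 (0.0548) missed the threshold, and in PRELP-/- against WT 0 of the 9 genes and 0 of the 30 partners passed. Genes that passed numbered 3516 with the block in place of 4899 in OMD-/-, and 115 in place of 1209 in PRELP-/-. The block turned Cdh2, Cdh3 and Cdh11 in PRELP-/- against WT to -0.0208, -0.0207 and -0.0328, each beside a value under 0.2. In PRELP-/- against OMD-/- the block changed no call of the 9 genes.

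Reversals of sign concerned fold changes that had not passed. In PRELP-/- against WT, total counts gave -0.022 for Cdh1, -0.0106 for Cdh2, -0.214 for Cdh3, -0.163 for Cdh11 and -0.0364 for Ctnnb1, all above or near the shifted median. Limma-voom gave -0.142 for Cdh3 and 0.242 for Ctnna1, and summed pairs gave -0.00423 for Cdh2 and -0.0973 for Cdh11. Leaving out single libraries gave -0.104 to 0.156 for Cdh3, -0.0704 to 0.269 for Cdh11 and -0.26 to 0.202 for Ctnna1. In PRELP-/- against OMD-/-, limma-voom gave 0.104 for Cdh1, 0.0707 for Ctnnb1 and 0.142 for Ctnnal1, the Y-linked covariate 0.0319, 0.177, 0.0376, 0.0431 and 0.168 for Cdh1, Cdh11, Ctnna1, Ctnnb1 and Ctnnal1, total counts -0.0126 for Cdh13 and -0.0571 for Ctnnd1, and summed pairs -0.0445 for Ctnnd1. Without single libraries the ranges there were -0.397 to 0.0749 for Cdh1, -0.178 to 0.0551 for Ctnnb1, -0.0494 to 0.106 for Ctnnd1 and -0.158 to 0.138 for Ctnnal1. Cdh13 minus endothelial markers moved to 0.333 there when the median of the marker list replaced the mean.

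Depth limits Cdh2, with 86 to 517 counts per library, and Cdh3, with 172 to 538 counts, more than the other members.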
